A study of Mus musculus with 18 samples.

Results

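Genes of sterol and fatty acid synthesis were followed in activated mouse CD4+ T cells. The set was a list of 30 genes chosen by pathway, with earlier results of these data known. It held enzymes of cholesterol synthesis, the SREBP transcription factors with their regulators, and enzymes that make, elongate or desaturate fatty acids. Values of distinct entries with the same gene symbol were summed, and a gene was tested in a table where its values averaged 1 FPKM or more (fragments per kilobase of transcript, scaled to sequencing depth). Experiment 1 listed 28 of the 30 genes among 22783 gene symbols, and 27 of them were tested. Experiment 2 listed 29 among 16639 symbols, and all 29 were tested.

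Naive CD4+ T cells of C57BL/6 mice were sorted from spleen, stimulated through CD3 and CD28 with antibodies, and harvested on day 4. In experiment 1, the tKO cells were Egln1fl/fl Egln2fl/fl Egln3fl/fl Cd4Cre and the control WT cells carried Cd4Cre alone, each cultured with 0, 0.2 or 2 ng/ml TGF-b. In experiment 2, wildtype cells at 2 ng/ml TGF-b received vehicle or 1 mM dimethyloxaloylglycine (DMOG). Experiment 1 had 2 libraries in each of its 6 groups, and experiment 2 had 3 in each of 2. The Egln genes encode the PHD enzymes, which hydroxylate HIF transcription factors in the presence of oxygen and so mark them for breakdown. Cd4Cre deletes floxed DNA in developing T cells, CD8 T cells included, and both genotypes carried it. DMOG inhibits 2-oxoglutarate-dependent dioxygenases as a class, so it reaches other enzymes besides the PHD proteins.

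Cholesterol and its precursors are built from acetyl-CoA through mevalonate, farnesyl diphosphate, squalene and lanosterol. Fatty acid synthesis draws on the same cytosolic acetyl-CoA, which is carboxylated, joined into saturated chains, and then elongated and desaturated. Genes of both routes are classical targets of the SREBP proteins, which the escort protein SCAP carries from the endoplasmic reticulum to the Golgi for cleavage when sterols are scarce and which INSIG proteins hold back when sterols are plentiful. Activated T cells raise both routes as they grow and divide.

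Absolute depth is unknown, since the tables give FPKM and no counts. FPKM sums were between 548974 and 856147 per library in experiment 1 and between 386382 and 443888 in experiment 2, and the relative number of reads behind 1 FPKM, read from low values, was between 0.44 and 1 and between 0.947 and 1.36. The lowest belonged to tKO at 0.2 ng/ml, replicate 2. The 3 libraries of tKO replicate 1 held 60.5 to 67.6 FPKM of Y-linked transcripts and the other 9 libraries of experiment 1 at most 0.008. All WT libraries were among these 9, so the sex of the donors may not be balanced between the genotypes. Results are also given without tKO replicate 1. Egln1 and Egln3 were called higher in tKO at each dose, Egln2 was lower in every tKO library than in the WT libraries of its dose without passing the test (-0.48 to -0.79), and the FPKM of a whole gene does not show whether the floxed exons were read. CD4 T cell markers summed to at least 1330 FPKM in every library of experiment 1 and 899 in experiment 2, against at most 86.6 and 12.4 for B cell markers. Erythroid markers reached at most 4.8 FPKM, and the myeloid gene Lyz2 was listed at 0 in all libraries of experiment 1. The class II genes H2-Ab1 and H2-Aa gave most of the myeloid and dendritic marker sum. This sum was 315 to 576 FPKM across tKO libraries, against 63.6 to 284 across WT libraries. H2-Ab1 was the larger of the pair except in WT at 2 ng/ml, replicate 2 (31.6 against 40.7 FPKM). In bulk RNA, fewer cells of a type and less RNA per cell cannot be told apart.

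Hmgcs1, Mvd and Tm7sf2 could not be read in experiment 1. Hmgcs1, the enzyme that makes HMG-CoA, had entries on an unplaced contig alone, listed at 0 in all 12 libraries. Mvd, which makes isopentenyl diphosphate, and Tm7sf2, a sterol reductase, appeared in joint entries with their neighbours Cyba and Vps51, which were not assigned to either gene. Hmgcs1 was the member without an entry in experiment 2. Scd1 and Scd2 are similar neighbouring paralogs on chromosome 19 (44468939 to 44482385 and 44368165 to 44381352, mm9), so reads may be split between them. The locus given for Cyp51 spans 176706 bases (chromosome 5, 3928067 to 4104772) and that of Srebf1 117841 bases, much more than either gene, so these values may hold reads of neighbours.

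Promoter sequence is shown for members whose response to TGF-b differed between genotypes and whose 250 bases before the RefSeq start held at least 200 bases outside annotated exons. RefSeq promoters (GRCm38.p6, 250 bases before to 50 after the start) matched 23 of the 30 members, with 29 promoters. Scd1, Scd2, Sqle, Fdps, Fdft1, Stard4 and Fads1 had none and were not searched. Capitals mark the E-box CACGTG and the CCAAT box, which reads ATTGG on the other strand.
Acat2, chr17:12960748-12960975, minus strand: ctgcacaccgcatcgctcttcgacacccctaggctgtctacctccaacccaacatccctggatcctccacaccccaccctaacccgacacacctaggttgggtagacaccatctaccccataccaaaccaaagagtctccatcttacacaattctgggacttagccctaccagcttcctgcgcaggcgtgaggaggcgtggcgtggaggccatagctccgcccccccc
Cyp51, chr5:4104747-4104947, minus strand: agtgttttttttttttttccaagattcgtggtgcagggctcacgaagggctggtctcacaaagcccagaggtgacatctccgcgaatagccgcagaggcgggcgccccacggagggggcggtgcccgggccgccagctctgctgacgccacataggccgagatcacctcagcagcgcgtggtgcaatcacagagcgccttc
Elovl5, chr9:77917115-77917363, plus strand: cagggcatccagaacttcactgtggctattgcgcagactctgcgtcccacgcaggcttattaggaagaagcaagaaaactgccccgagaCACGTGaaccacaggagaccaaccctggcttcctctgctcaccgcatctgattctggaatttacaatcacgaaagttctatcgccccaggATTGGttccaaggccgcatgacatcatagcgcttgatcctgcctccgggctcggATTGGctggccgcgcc

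Over whole promoters and both strands, the CCAAT box was in 65.5% of the 29 member promoters and in 37.4% of all 32851. In the Elovl5 stretch the E-box began 161 bases before the start and the CCAAT boxes 71 and 17 bases before it, while the Acat2 and Cyp51 stretches printed held no match (the CCAAT box of Cyp51 lies in the rest of its window). The E-box CACGTG was in 20.7% of member promoters (Dhcr7, Elovl5, Hsd17b7, Insig1 and Scap) and 7.15% of all. One consensus form of the sterol response element, TCACNCCAC, was in 3.45%, that of Hmgcs1 alone, and 1.24% of all. Other forms of the element were not searched. The letters ACGTG, the core of the HIF site, were in 27.6% and 19.6%, and every E-box CACGTG holds them. These are letter matches within these windows.

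In experiment 1 Fdps, which makes farnesyl diphosphate, had the highest mean level, 239 FPKM over the 12 libraries, with libraries between 171 and 350.5. Elovl5, which elongates polyunsaturated fatty acids, followed at 78.2 FPKM, then the sterol isomerase Ebp at 64.9, squalene epoxidase Sqle at 62.3 and the lanosterol demethylase Cyp51 at 60.1. The libraries of Elovl5, Ebp, Sqle and Cyp51 overlapped. Scd1, a stearoyl-CoA desaturase, and Acaca, which makes malonyl-CoA, were lowest of the tested members, at 2.29 and 2.97 FPKM. The paralog Scd2 had 50.5 FPKM, with libraries from 19.1 to 86.5. In experiment 2 Scd2 was highest, at 253 FPKM over the 6 libraries, and Elovl6, which elongates saturated chains, lowest, at 2.56. The tables were normalized separately, so levels are not compared across them.

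Part of the sterol and fatty acid genes fell with TGF-b in WT cells. In WT cells 12 of 27 members fell between 0 and 2 ng/ml and 0 rose, where 7.91% of all 10354 genes tested fell and 7.79% rose. In tKO cells 3 rose and 0 fell, where 7.59% of all genes rose and 10.4% fell. The genotype difference of the response (2 minus 0 ng/ml in tKO less that in WT) was higher in tKO for 7 members and lower for 0, where 1.55% of all genes were higher and 1.43% lower. Of the 27 members 25 had a positive difference, with a median of 0.89 on the log2 scale against -0.02 over all genes. All fold changes here are log2 values of FPKM + 1 ± SE, and adjusted p-values are limma's with Benjamini-Hochberg adjustment. These comparisons share libraries, so they are not independent of one another. The members were chosen with earlier results of these data known, so the shares over all genes describe the set and do not test it.

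**Figure D1:**
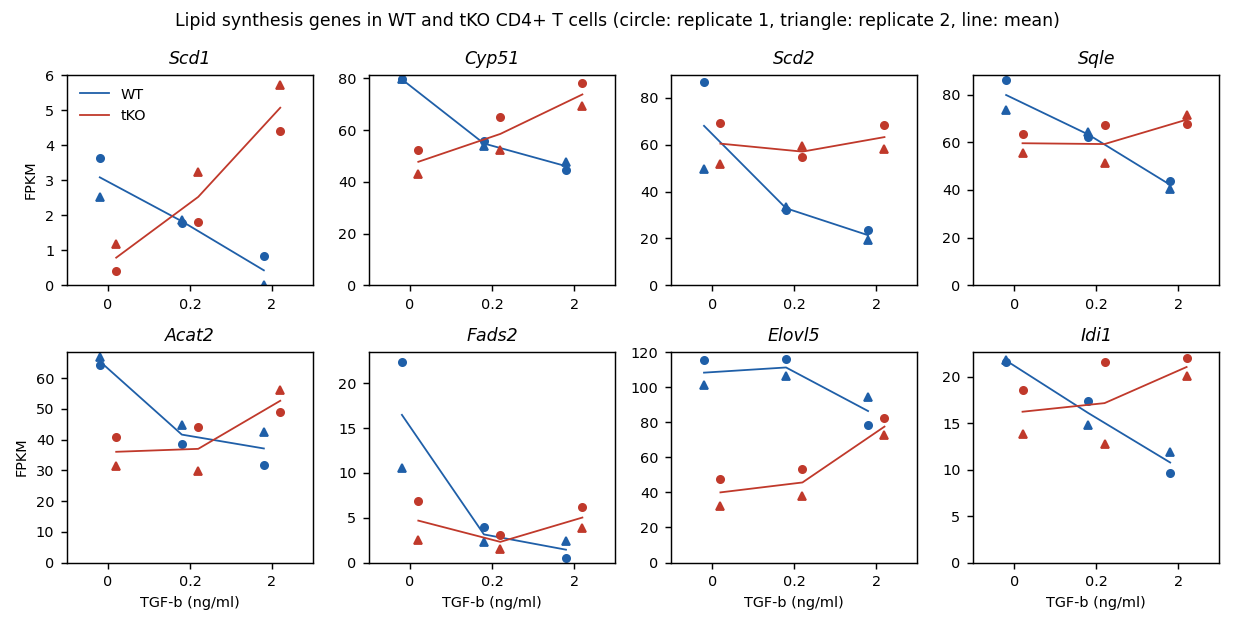
FPKM (vertical axes, from 0) against TGF-b dose in ng/ml for the 7 members with a called genotype difference and Idi1; circles are replicate 1, triangles replicate 2 and lines group means, blue for WT and red for tKO. Cyp51 goes from about 79.6 FPKM to 46.1 in WT and from 47.8 to 73.8 in tKO.

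Among enzymes from acetyl-CoA to farnesyl diphosphate, Acat2, which joins acetyl-CoA units in the cytosol, had 64.2 and 66.7 FPKM in WT at 0, 38.6 and 44.7 at 0.2 and 31.6 and 42.6 at 2 ng/ml (replicates 1 and 2, as in all pairs below). In tKO it had 40.7 and 31.3, then 44.2 and 29.7, then 49.0 and 56.2 FPKM. Thus WT was above tKO without TGF-b and below it at 2 ng/ml, with no overlap at either dose. The genotype difference of the response was 1.36 ± 0.32 (adjusted p = 0.0401).

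Idi1, the isopentenyl diphosphate isomerase, had 21.6 and 21.8 FPKM in WT at 0, 17.3 and 14.8 at 0.2 and 9.60 and 11.9 at 2 ng/ml. In tKO its values were 18.6 and 13.9, 21.6 and 12.7, and 22.1 and 20.0 FPKM. It fell in WT by 0.96 ± 0.26 (adjusted p = 0.0223), and its genotype difference of 1.32 ± 0.36 did not pass (adjusted p = 0.0654). Fdps had 351 and 324 FPKM in WT at 0, 178 and 221 at 0.2 and 171 and 175 at 2 ng/ml, and in tKO 221 and 238, 265 and 314, and 196 and 215. It was the only member called between 0 and 0.2 ng/ml in WT, where it fell by 0.77 ± 0.16 (adjusted p = 0.0302), where 0.676% of all genes fell, 0.918% rose and 1.59% were called either way. The call was lost without a filter on low values, and without either WT library at 0 ng/ml, either WT library at 0.2, WT replicate 2 at 2 or either tKO library at 2 ng/ml. In these fits 0 members were called, except without WT replicate 2 at 0 ng/ml, where 1 other member was. Mevalonate kinase Mvk and phosphomevalonate kinase Pmvk had genotype differences of 0.89 ± 0.34 and -0.19 ± 0.27 that did not pass.

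Along the route from squalene to cholesterol, Cyp51 changed in opposite directions in the genotypes. Its WT libraries had 79.7 and 79.6 FPKM at 0, 55.9 and 53.7 at 0.2 and 44.6 and 47.6 at 2 ng/ml. Its tKO libraries had 52.4 and 43.2, 64.9 and 52.2, and 78.3 and 69.3 FPKM. Cyp51 fell in WT by 0.78 ± 0.17 (adjusted p = 0.00884), rose in tKO by 0.62 ± 0.17 (adjusted p = 0.0248) and differed between genotypes by 1.40 ± 0.24 (adjusted p = 0.0092). 

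Sqle, which commits squalene to sterols, had 86.1 and 73.5 FPKM in WT at 0, 62.1 and 64.5 at 0.2 and 43.9 and 40.4 at 2 ng/ml. In tKO its libraries stayed between 51.1 and 71.4 FPKM at all doses, with 63.6 and 55.6, 67.4 and 51.1, and 67.6 and 71.4. The genotype difference was 1.12 ± 0.25 (adjusted p = 0.0333). Lanosterol synthase Lss fell in WT, from 43.5 and 27.9 FPKM at 0 to 16.0 and 14.9 at 2 ng/ml, with 16.9 and 26.8 between. In tKO Lss had 31.8 and 16.5, 25.7 and 15.4, and 27.8 and 31.0 FPKM, and its difference of 1.47 ± 0.47 did not pass (adjusted p = 0.114). Fdft1, squalene synthase, had 51.9 and 55.2, 38.6 and 45.1, and 44.1 and 30.7 FPKM in WT and 43.8 to 54.0 FPKM in tKO, with a difference of 0.73 ± 0.27 (adjusted p = 0.161). Nsdhl, Hsd17b7 and Dhcr7, later sterol enzymes, had differences of 0.69 to 1.09 that did not pass, and Ebp had -0.06 ± 0.30.

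No SREBP gene or regulator passed in the genotype difference, nor did the sterol carrier Stard4. All 5 genes of that group had positive values, with a median of 0.73. Srebf2, the SREBP gene tied most to sterol enzymes, had 59.9 and 41.1 FPKM in WT at 0, 35.1 and 46.9 at 0.2 and 32.2 and 33.7 at 2 ng/ml, and between 29.8 and 37.2 in all tKO libraries. Srebf1, tied more to fatty acid enzymes, and Srebf2 differed by 0.73 ± 0.30 and 0.77 ± 0.29 (adjusted p = 0.203 and 0.176). Scap and Insig1, the escort and the retention factor, had 1.11 ± 0.60 and 0.63 ± 0.44. The sterol carrier Stard4 fell in WT by 0.87 ± 0.25 (adjusted p = 0.0323) and its genotype difference was 0.54 ± 0.36.

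The desaturases Scd1, Fads2 and Scd2 had the largest genotype differences of the 27 tested members. Scd1 had 3.65 and 2.53 FPKM in WT at 0, 1.79 and 1.87 at 0.2 and 0.853 and 0.00659 at 2 ng/ml. In tKO it had 0.399 and 1.18, 1.82 and 3.24, and 4.42 and 5.74. The order of the genotypes was therefore reversed between 0 and 2 ng/ml, with no overlap at either, and the difference was 3.36 ± 0.55 (adjusted p = 0.00655). The levels are low, and adding 1 FPKM understates such changes.

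Scd2, at a much higher level, had 86.5 and 49.5 FPKM in WT at 0, 32.3 and 33.4 at 0.2 and 23.6 and 19.1 at 2 ng/ml. In tKO it had 69.3 and 51.5, 54.6 and 59.4, and 68.4 and 58.0 FPKM. Its tKO libraries lay between 51.5 and 69.3 FPKM at all doses, and the difference of 1.65 ± 0.35 (adjusted p = 0.0245) came with a fall in WT of 1.58 ± 0.24 (adjusted p = 0.00088) and a tKO change of 0.07 ± 0.24. Fads2, which makes the first desaturation of essential fatty acids, had 22.4 and 10.5 FPKM in WT at 0, 3.94 and 2.34 at 0.2 and 0.451 and 2.42 at 2 ng/ml. In tKO it had 6.83 and 2.54, 3.11 and 1.502, and 6.15 and 3.90 FPKM, and the difference was 3.05 ± 0.71 (adjusted p = 0.0401). The 2 libraries of a group lay far apart for Fads2.

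Elovl5 had another pattern: it was high in WT at all doses and low in tKO except at 2 ng/ml. WT libraries had 115 and 101, 116 and 106, and 78.2 and 94.5 FPKM, and tKO libraries 47.5 and 32.5, 53.3 and 38.0, and 82.2 and 72.8. It rose in tKO by 0.96 ± 0.21 (adjusted p = 0.00859) and its genotype difference was 1.28 ± 0.30 (adjusted p = 0.0408). Elovl6 had 8.18 and 6.76, 4.52 and 5.92, and 2.34 and 2.59 FPKM in WT and 2.84 to 4.28 in tKO, and Fads1, the next desaturase of the essential fatty acid route, 16.0 and 9.62, 9.54 and 11.1, and 10.6 and 7.45 in WT and 5.31 to 10.3 in tKO. Their genotype differences were 1.35 ± 0.39 and 1.08 ± 0.39 (adjusted p = 0.0779 and 0.152). Of the makers of saturated chains, Fasn fell in WT by 0.84 ± 0.23 (adjusted p = 0.0253), and Acly, which supplies cytosolic acetyl-CoA, and Acaca did not pass. The genotype differences of Fasn, Acly and Acaca were 0.39, 0.82 and 0.36 and none passed.

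**Figure D2:**
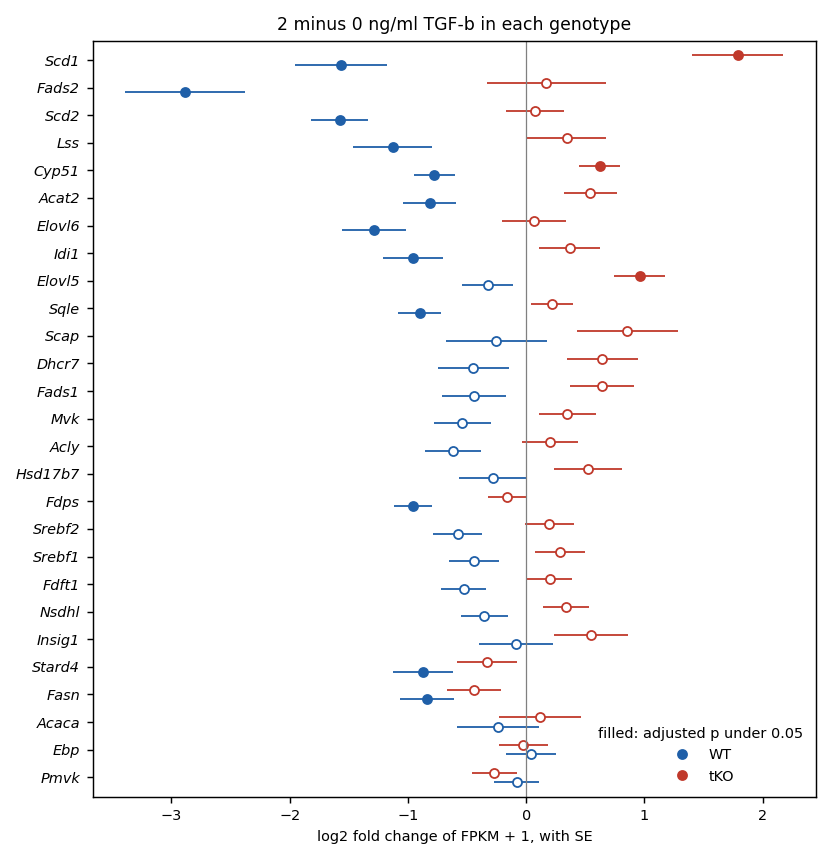
Log2 fold change of FPKM + 1 between 2 and 0 ng/ml TGF-b (horizontal axis) for the 27 tested members, with bars of 1 SE; blue is WT, red is tKO, and filled points have an adjusted p under 0.05. Blue points lie left of 0 for 26 members and red points right of 0 for 22.

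The 12 members that fell in WT at 2 ng/ml TGF-b were Scd2, Fdps, Fads2, Sqle, Elovl6, Cyp51, Scd1, Idi1, Fasn, Acat2, Stard4 and Lss. Falls ranged from 0.78 for Cyp51 to 2.88 ± 0.51 for Fads2 (adjusted p = 0.00204). Groups did not overlap, with WT at 2 ng/ml lower, for 21 of 27 members, where 31.5% of all genes showed this. At 0.2 ng/ml 26 of 27 members had negative WT values, though only Fdps was called. In tKO cells the members that rose were Scd1 by 1.79 ± 0.39 (adjusted p = 0.00736), Elovl5 and Cyp51, and 16 members did not overlap upward and 4 (Pmvk, Fdps, Stard4 and Fasn) downward, where 29.1% and 32.2% of all genes did so. Between 0 and 0.2 ng/ml in tKO limma called 0 members at the adjusted threshold and 3 at an unadjusted p under 0.05, where 1.7% of all genes were called higher, 0.782% lower and 2.48% either way.

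Mitotic and S phase genes moved with the WT response. Their sum of 12 genes went from 2040 to 2080 FPKM in WT at 0 to between 1300 and 1360 at 2 ng/ml, with 8 of 12 lower, and in tKO from 1690 to 1700 to between 1450 and 1570, with 2 higher and 1 lower. In the genotype difference 1 of the 12, Plk1, named after its value was seen, was called, and all 12 had positive values with a median of 0.64. All 5 tested B cell markers had negative values in the genotype difference, with a median of -1.18 and 0 called. The part of cell division or of B cell RNA in the lipid gene values was not tested. The WT count was 3 without WT replicate 1 at 0 ng/ml, 6 without WT replicate 2 at 0 ng/ml and 7 without WT replicate 1 at 2 ng/ml. The tKO count was 1 without tKO replicate 2 at 0 ng/ml or without either tKO library at 2 ng/ml, and 2 (Elovl5 and Cyp51) without the 3 libraries of tKO replicate 1.

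Leaving out a library lowers the power for all genes, so a lower count may not be particular to the members, which was not tested. The count of 7 genotype differences also depended on single libraries. It was 1 without WT replicate 1 at 0 ng/ml or tKO replicate 1 at 2 ng/ml, and 2 without tKO replicate 2 at 0 or at 2 ng/ml. It was 3 without either WT library at 0.2 ng/ml or at 2 ng/ml and 4 without WT replicate 2 at 0 ng/ml. Scd1 was called in each of these fits. With no filter on low values Scd1 and Cyp51 alone were called. The count was larger with a replicate block or with the labelled series as a term, as given at the end. Without the 3 libraries of tKO replicate 1, all 7 were called together with Lss and Idi1.

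Without TGF-b, tKO cells had less of several sterol and fatty acid genes than WT cells. Of 27 members 6 were lower and 0 higher, where 4.3% of all genes were lower, 5.34% higher and 9.64% either. The 6 were Elovl5 (-1.44 ± 0.21, adjusted p = 0.000735), Cyp51 (-0.73 ± 0.17), Acat2 (-0.86 ± 0.22), Mvk (-0.90 ± 0.24), Fads1 (-0.97 ± 0.27) and Fdps (-0.56 ± 0.16). Mvk had 19.6 and 16.4 FPKM in WT and 9.90 and 8.46 in tKO. The tKO libraries lay wholly below WT for 18 of 27 members and wholly above for 0, where 26.2% and 25.8% of all genes did so, and the median difference was -0.52 against 0.00 over all genes. The mitotic and S phase sum was also lower in tKO at this dose, 1690 to 1700 against 2040 to 2080 FPKM with 2 of 12 genes called, as was that of CD4 T cell markers, 1330 to 1400 against 1710 to 1770 with 1 of 6 called, and 1 of 3 tested myeloid and dendritic markers, H2-Ab1, was higher (2.89 ± 0.60, adjusted p = 0.00663), with Cd68 at 0.95 and H2-Aa at 0.19. B cell markers summed to 43.4 to 86.6 FPKM in tKO against 14.9 to 42.0 in WT. All 5 tested had positive values, and 0 were called. Their part in the lipid gene values was not tested. The count was 1 without WT replicate 1 or tKO replicate 2 at 0 ng/ml, 3 without WT replicate 2 at 0 ng/ml, and 4 without tKO replicate 1, namely Elovl5, Cyp51, Acat2 and Fads2. With no filter on low values it was 2, Elovl5 and Cyp51.

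At 2 ng/ml the direction was the opposite: 6 members were higher in tKO and 0 lower, where 7.82% and 8.16% of all genes were. The differences were 2.15 ± 0.39 for Scd1 (adjusted p = 0.00233), 1.52 ± 0.24 for Scd2 (adjusted p = 0.000997), 1.03 ± 0.29 for Hsd17b7, 0.91 ± 0.26 for Idi1, 0.71 ± 0.18 for Sqle and 0.67 ± 0.17 for Cyp51. The tKO libraries lay wholly above WT for 19 members and wholly below for 2, Pmvk and Ebp, where 29.1% and 32.1% of all genes did so. Hsd17b7, an enzyme of sterol demethylation, had 4.12 and 3.36 FPKM in WT and 6.96 and 10.7 in tKO. At this dose CD4 T cell markers were lower in tKO, 1360 to 1370 against 2090 to 2320 FPKM in sum with 4 of 6 called, and of 3 tested myeloid and dendritic markers H2-Ab1 was higher (2.00 ± 0.60, adjusted p = 0.0371) while H2-Aa was at -1.002 and Cd68 at -0.01, not called. Their part in the lipid gene values was not tested. The count was 2 without tKO replicate 2 at 2 ng/ml and 3 without tKO replicate 1 or either WT library at 2 ng/ml; without all libraries of tKO replicate 1 it was 5, and Idi1 was not among them.

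**Figure D3:**
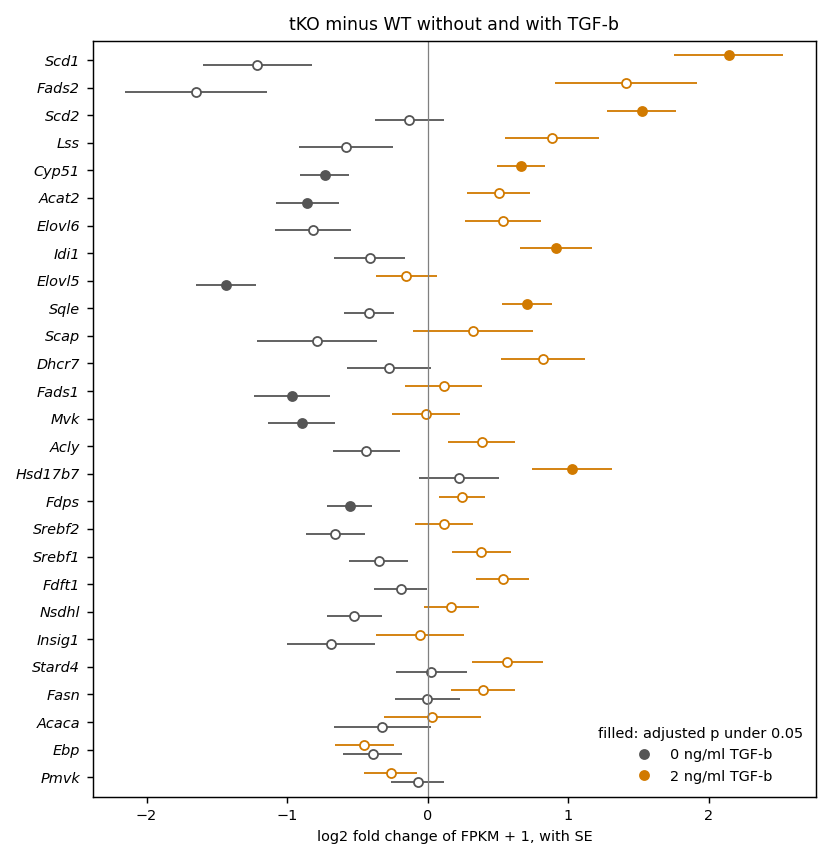
Log2 fold change of FPKM + 1 between tKO and WT (horizontal axis) for the 27 tested members, with bars of 1 SE; grey is 0 ng/ml TGF-b, orange 2 ng/ml, and filled points have an adjusted p under 0.05. The median of the members is -0.52 at 0 ng/ml and 0.39 at 2 ng/ml.

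At 0.2 ng/ml the members were divided. Elovl5 was lower in tKO by 1.28 on the log2 scale (-1.28 ± 0.21, adjusted p = 0.00129), where 6.38% of all genes were lower. Hsd17b7 (1.18 ± 0.29, adjusted p = 0.0141), Fdps (0.54 ± 0.16) and Scd2 (0.78 ± 0.24) were higher, where 9.11% were. Hsd17b7 had 3.62 and 2.87 FPKM in WT and 7.56 and 9.67 in tKO. The median over members was 0.09. The count of 4 was 1 without WT replicate 2 or tKO replicate 2 at 0.2 ng/ml, and 2 without WT replicate 1 at 0.2 ng/ml or without any 1 library at 2 ng/ml. Fdps, at 0.21, was not called under quantile normalization (adjusted p = 0.34). Without the 3 libraries of tKO replicate 1 the calls were Elovl5 and Insig1 lower and Hsd17b7, Fdps and Pmvk higher, and Scd2 was lost (adjusted p = 0.0706). CD4 T cell markers were lower in tKO here, 1530 to 1610 against 1990 to 2070 FPKM in sum with 3 of 6 called, and mitotic and S phase genes had sums of 1570 to 1690 against 1670 to 1860 with 2 of 12 called lower. H2-Ab1 (2.28 ± 0.60, adjusted p = 0.0204) and the CD8 T cell marker Cd8b1 (1.24 ± 0.36, adjusted p = 0.033) were higher, with H2-Aa at -0.79 and Cd68 at 1.06, not called. The part of these in the lipid gene values was not tested.

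DMOG at 2 ng/ml TGF-b raised both routes in part: 16 of 29 members were higher than with vehicle and 6 lower. In this comparison 27.7% of all 9884 genes tested were called higher and 33.2% lower, 60.8% in all. The median of the members was 0.42 against -0.03 over all genes. Enzymes from acetyl-CoA to farnesyl diphosphate rose in 5 of 6 cases, and all 3 enzymes of saturated chain synthesis rose. The sterol enzymes from squalene synthase Fdft1 on to cholesterol were divided, 4 higher and 3 lower. Among the SREBP genes and their regulators Scap and Srebf2 were lower, and the sterol carrier Stard4 was higher. In this group of 5 genes, 4 had negative values and Stard4 a positive one.

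Scd1 had 1.16, 0.653 and 0.408 FPKM with vehicle and 36.0, 25.5 and 18.5 with DMOG (replicates 1 to 3). Fads2 had 1.61, 2.15 and 2.00 FPKM with vehicle and 19.3, 12.7 and 12.1 with DMOG. Each DMOG library was far above all vehicle libraries for both desaturases. The changes were 3.96 ± 0.19 (adjusted p = 8.53e-12) and 2.40 ± 0.15 (adjusted p = 2.68e-10). Scd1 averaged 0.740 FPKM with vehicle and 26.7 with DMOG, so only the DMOG libraries brought it to the level for testing. Its p-value therefore adds no support beyond the values themselves. Scd2 had 127, 114 and 93.7 FPKM with vehicle and 572, 313 and 301 with DMOG, a change of 1.76 ± 0.19 (adjusted p = 4.25e-07).

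Fdps had 64.1, 63.1 and 64.3 FPKM with vehicle and 168, 186 and 165 with DMOG (1.42 ± 0.11, adjusted p = 3.7e-09). Lss had 8.17, 7.50 and 7.70 FPKM with vehicle and 20.2, 21.3 and 21.3 with DMOG (1.32 ± 0.10, adjusted p = 8.91e-09). In both genes the groups lay far apart and the replicates close together. Idi1 (1.26 ± 0.11), Stard4 (1.13 ± 0.12), Acaca (1.07 ± 0.11) and Acat2 (1.05 ± 0.11) rose as well. Acly, Fasn, Fdft1, Mvd, Nsdhl, Pmvk and Hsd17b7 rose by 0.31 to 0.90.

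Elovl5 fell with DMOG, from 75.9, 89.9 and 85.0 FPKM to 47.9, 32.8 and 32.4 (-1.15 ± 0.14, adjusted p = 2.02e-06). Dhcr7, the enzyme of the last step to cholesterol, went from 26.8, 33.6 and 28.9 FPKM to 21.2, 14.5 and 14.0 (-0.83 ± 0.14, adjusted p = 9.66e-05). Tm7sf2 went from 7.87, 10.7 and 9.11 FPKM to 6.59, 4.79 and 4.41 (-0.71 ± 0.14, adjusted p = 0.000261). Scap went from 29.0, 33.5 and 30.4 FPKM to 25.0, 15.2 and 18.0 (-0.68 ± 0.14, adjusted p = 0.000697). All 3 DMOG libraries lay below all vehicle libraries for these 4 genes and for Insig1, 5 members in all, where 35.4% of all genes did so. Upward, 16 members did not overlap, where 30.3% of all genes did so. Srebf2 (-0.53 ± 0.16) and Ebp (-0.39 ± 0.13) were also lower.

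Cyp51 and Sqle, called in the genotype comparison at 2 ng/ml, did not pass with DMOG. Cyp51 had 85.4, 118 and 96.3 FPKM with vehicle and 129, 87.3 and 84.2 with DMOG (-0.01 ± 0.15, adjusted p = 0.962). Sqle had 51.3, 64.8 and 51.9 FPKM and 86.9, 56.7 and 56.7 (0.23 ± 0.15, adjusted p = 0.207). For both genes DMOG replicate 1 was the highest of the 6 libraries and the other two DMOG libraries were within or near the vehicle range. The same library was the highest with DMOG for Srebf1 (59.4 against 33.8 and 31.6 FPKM), Srebf2 (132 against 75.0 and 81.9) and Scd2. It was also the highest with DMOG for many other members, among them Dhcr7, Elovl5, Tm7sf2, Ebp, Scap, Scd1, Fads1 and Fads2. For Fdps, Idi1, Lss and Acly it was not. The library also stood apart outside the set, as for Cd4 (175 against 103 and 96.2 FPKM), so its shift was not particular to these genes. Without DMOG replicate 1, 23 members were called in place of 22: Srebf1 (-0.65) and Insig1 (-0.30) were then lower, and Hsd17b7 was lost.

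**Figure D4:**
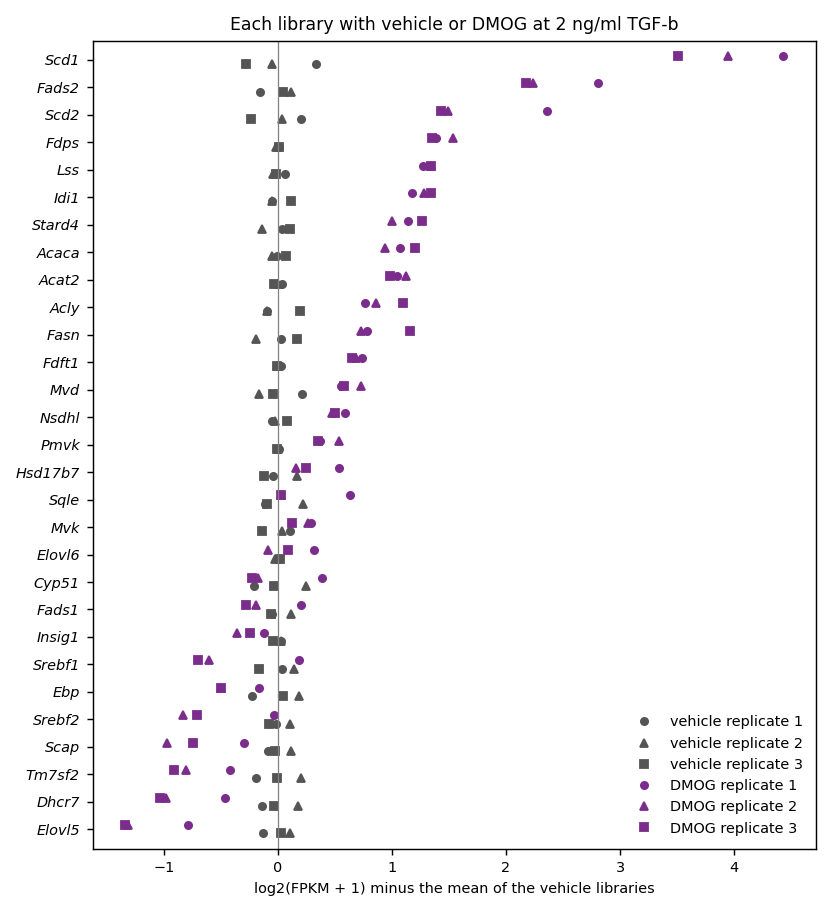
Log2(FPKM + 1) of each library minus the mean of the vehicle libraries (horizontal axis) for the 29 members, ordered by their DMOG change; grey is vehicle, purple DMOG, and the shape gives the replicate. Purple circles, DMOG replicate 1, lie right of the other DMOG libraries for many members, among them Cyp51, Sqle, Srebf1, Srebf2 and Scap.

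Mitotic and S phase genes rose with DMOG as well, from a sum of 876 to 1030 FPKM to between 1240 and 1450, with 9 of 12 higher. All 7 CD4 T cell markers were lower, from 1980 to 2360 FPKM in sum to between 899 and 1220. Of 3 tested myeloid and dendritic markers H2-Ab1 was higher (3.75 ± 0.17, adjusted p = 4e-12), Itgam lower (-2.95 ± 0.09, adjusted p = 5.72e-14) and Cd68 not called (-0.23), and H2-Aa, under the level for testing, was 0.621 to 2.18 FPKM with vehicle and 0.248 to 0.42 with DMOG. The CD8 T cell marker Cd8a was higher (1.25 ± 0.12, adjusted p = 1.43e-07), from 0.391 to 0.821 FPKM to between 2.34 and 3.43, and Cd8b1 was not called. Only the DMOG libraries brought Cd8a to the level for testing, and only the vehicle libraries brought Itgam to it. The B cell marker sum went from between 7.62 and 12.4 FPKM to between 0.936 and 1.31. The part of these in the lipid gene values was not tested.

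Genes of linked pathways outside the 30 are described by their lists. Of 7 other enzymes of cholesterol synthesis 3 were lower and 0 higher in tKO without TGF-b, where 4.3% and 5.34% of all genes were, the sterol reductase Lbr among them (-0.87 ± 0.16, adjusted p = 0.00346). In the genotype difference limma called 1 of the 7 higher and 0 lower, where 1.55% and 1.43% of all genes were. Positive values were 5 of 7, with a median of 0.811, and 5 of 7 were at an unadjusted p under 0.05. With DMOG 2 of the 7 were higher, among them Aacs, which activates acetoacetate (1.25 ± 0.11, adjusted p = 3.19e-08), and 3 lower. These and the DMOG counts of the lists that follow stand against 27.7% of all genes higher and 33.2% lower. None of 8 genes of the nonsterol mevalonate branch and none of 5 of SREBP processing was called in the genotype difference by limma, with 0 of each at an unadjusted p under 0.05. Positive values were 5 of 8 in the first list, with a median of 0.18, and 4 of 5 in the second, with a median of 0.765. At 2 ng/ml Insig2, a second retention factor, was higher in tKO (0.97 ± 0.24, adjusted p = 0.0129). With DMOG 4 of 6 genes of SREBP processing were lower and 0 higher, among them the ubiquitin ligase gene Rnf139 (-0.53 ± 0.13, adjusted p = 0.00161). In the nonsterol branch 3 of 8 were higher and 2 lower with DMOG, near the shares over all genes, with Pdss1, of ubiquinone side chain synthesis, at 1.00 ± 0.11 and Fntb, a farnesyltransferase subunit, at -0.89 ± 0.12.

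Genes of lipid export and storage were also followed. With DMOG the sterol exporters Abca1 and Abcg1 fell by 2.85 ± 0.14 and 1.99 ± 0.17 (adjusted p = 9.74e-12 and 2.08e-08) and the lysosomal lipase Lipa by 1.29 ± 0.15, and 5 of 9 genes of sterol uptake, storage and efflux were lower and 2 higher, where 33.2% and 27.7% of all genes were. In tKO, Abcg1 had 0.143 and 0.551 FPKM at 0 ng/ml against 5.75 and 3.60 in WT (-2.06 ± 0.30, adjusted p = 0.000634), and 4.10 and 3.19 against 9.98 and 11.0 at 2 ng/ml. In this group of 10 genes 1, Npc2, named after its value was seen, was called lower in the genotype difference.

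Hilpda, an inhibitor of fat breakdown at lipid droplets, had 40.3 and 34.7 FPKM in WT at 0 ng/ml, where tKO had 309 and 378 (3.16 ± 0.26, adjusted p = 6.53e-06), and it rose with DMOG by 2.73 ± 0.12 (adjusted p = 6.17e-12). The droplet coat gene Plin2 was higher in tKO without TGF-b (1.97 ± 0.24) and lower with DMOG (-1.37 ± 0.11), and the lipase gene Lipe was higher with DMOG (1.35 ± 0.12). Of 7 genes of droplet storage 1 was higher and 1 lower in the genotype difference, and 4 were higher and 2 lower with DMOG. Hacd1 (listed as Ptpla), of very long chain synthesis, was higher in tKO at 0 and 2 ng/ml (2.21 ± 0.34 and 1.84 ± 0.34) and with DMOG (1.03 ± 0.11). It had 0.334 to 0.726 FPKM with vehicle and 1.98 to 2.42 with DMOG. Only the DMOG libraries brought it to the level for testing in experiment 2. Its list held other genes of fatty acid synthesis and activation. None of the 14 tested in experiment 1 was called in the genotype difference, with 2 at an unadjusted p under 0.05. With DMOG 4 of 15 were higher and 7 lower. Of 13 genes of fatty acid oxidation none was called in the genotype difference, with 1 at an unadjusted p under 0.05. With DMOG, where 33.2% of all genes were lower and 27.7% higher, 8 of 14 were lower, with Cpt1a, the gate of mitochondrial oxidation, at -1.75 ± 0.13 (adjusted p = 4.42e-09), and 3 higher, with the nuclear receptor Ppard at 1.54 ± 0.14 (adjusted p = 7.38e-08).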

How the data were processed

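Total RNA was extracted with RNeasy kits, and mRNA was amplified with a SMARTer low input kit, which does not mark the strand, per the labels' protocols. Trimmomatic, TopHat, Cufflinks and Cuffdiff were used with the mm9 build, per the submitters' processing notes, which list no versions. What the authors deposited are FPKM values per library in 2 tables, each normalized on its own, and every test stayed inside a table.

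Here exact duplicates were dropped and entries of a symbol summed. Genes averaging 1 FPKM or more (10354 and 9884) were tested on log2(FPKM + 1) with limma 3.58.1 (R 4.3.3). The model had a coefficient for each group, let the variance follow the mean, and estimated it from all libraries of an experiment. P-values are two-sided and adjusted by the Benjamini-Hochberg method over all genes of a comparison, with a threshold of 0.05. The script was tested on simulated data. Nothing in the labels says that libraries of a group came from separate animals. The 2 tKO libraries of each dose differed in Y-linked transcripts, so these came from different sources. P-values measure the spread between these libraries, which in the other groups may be technical. No interval for counting error can be given. The number of libraries, 2 or 3 per group, limits the precision.

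The members and lists were chosen with earlier results of these data known. Values in every library are given for up to 14 members by smallest p in the genotype difference, and for up to 4 called members of smallest p in each direction of a comparison. Other lists are given as counts, with up to 3 genes of smallest p. Some genes counted in these lists are not reported here by name. Alternatives were a pseudocount of 0.1, no filter, a minimum of 5 FPKM, quantile normalization, the highest entry per symbol, a replicate block, the labelled series as a term, and each library left out. Leaving out tKO replicate 1 was added after seeing the data.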

Additional observations from a re-analysis of the deposited data

Results flagged for a closer look

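The response to 2 ng/ml TGF-b differed between WT and tKO cells, by the interaction term in limma, for 7 sterol and fatty acid genes. On the log2 scale the tKO response exceeded the WT response by 3.36 for Scd1, 3.05 for Fads2, 1.65 for Scd2, 1.40 for Cyp51, 1.36 for Acat2, 1.28 for Elovl5 and 1.12 for Sqle (adjusted p from 0.00655 to 0.0408).

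Genes of the other lists differed in the same test. The difference was 4.20 for the triglyceride synthesis gene Dgat2, which went from 3.06 and 7.09 FPKM to 1.14 and 6.03 in WT and from 1.79 and 2.69 to 36.4 and 41.3 in tKO, and 0.92 for the mitotic kinase Plk1. It was negative for the lysosomal sterol carrier Npc2 (-1.80) and for the droplet coat gene Plin2 (-2.03).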

How the results depend on the processing

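Of 61 results for single members, 1010 values under the alternatives kept their direction, and 826 of these kept their call while 184 lost it. Without a filter on low values the members called were 2 at 0 ng/ml, 0 for WT 0.2 minus 0 and 2 for the genotype difference, in place of 6, 1 and 7; the cause was not tested. With 1 library left out the count lay between 1 and 7 at 0 ng/ml, 1 and 5 at 0.2, 2 and 7 at 2 ng/ml, 0 and 1 for WT 0.2 minus 0, 3 and 12 for WT 2 minus 0, 1 and 3 for tKO 2 minus 0, and 1 and 9 for the genotype difference. It was 20 to 23 for DMOG and 0 throughout for tKO 0.2 minus 0. Where a group is left with 1 library, that library is assumed to vary like the other groups. Such fits have less power for every gene, so a lower count may not be particular to the members. Deviations of same-numbered libraries had r from -0.106 to 0.416 in experiment 1 and -0.194 to 0.443 in experiment 2. The negative values of experiment 1 were between WT and tKO libraries. Within WT the correlations across doses were 0.186, 0.0573 and 0.0899. The labels do not state what the numbers share, so the numbers were not taken as pairs in the main fit. Within tKO the correlations across doses were 0.416, 0.127 and 0.11, and all 3 replicate 1 libraries held Y-linked transcripts, so tKO libraries of one number may share a source, which the labels do not state. With the replicate block the count for WT 0.2 minus 0 was 3, as with the labelled series as a term, and the genotype difference count was 9 with either. With DMOG the block gave 21, losing Hsd17b7 and Ebp, and no other call of a single member was lost with it. Depth is unknown, and values under 1 FPKM, Scd1 among them, are the least certain.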
